A study of Mus musculus with 13 samples.

Results

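This account describes 10 genes whose products restrain signalling from the T cell receptor and are set apart here from the classical phosphatases that also do so: the surface receptors Cd5 and Cd6, the adaptors Sla and Sla2, the STS proteins Ubash3a and Ubash3b, the ubiquitin ligases Cblb and Cbl, and the diacylglycerol kinases Dgka and Dgkz. They were chosen by name, as probe sets annotated with that single symbol, and the probe set with the highest mean stood for each gene. All 10 were measured, among 19752 genes on the array. RNA came from thymocytes sorted from mice 2 weeks old, of mixed sex by label, wild type (WT) or with conditional knockout (cKO) of Sox4, which encodes an HMG box transcription factor. The sources used here do not give the Cre driver, the strain, or whether an array holds 1 animal or a pool. V2 cells were sorted as TCRδ-positive, Vγ2-positive and HSA-high without CD4 or CD8, and are immature γδ thymocytes. DP cells carry both CD4 and CD8. The titles give 8 V2 arrays, 4 of each genotype, and 5 DP arrays, of which 2 are WT and 3 are cKO, with 1 array per sample. V2 titles are written in 2 ways, V2imm and immV2, and V2 arrays are named here by number and title form. Values are log2 of the deposited RMA intensity, so a difference of 1 is a doubling.

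When the T cell receptor is engaged, the Src-family kinase Lck and the kinase ZAP-70 phosphorylate the receptor chains and the adaptors LAT and SLP-76, and PLCγ1 then makes diacylglycerol, which recruits RasGRP1 and protein kinase Cθ. CD5 and CD6 are related scavenger-receptor proteins of T cells that damp this cascade from the membrane, and CD5 on thymocytes is known to follow the strength of receptor signals. SLAP and SLAP-2, from Sla and Sla2, bring Cbl proteins to the receptor, and c-Cbl and Cbl-b attach ubiquitin to the receptor and its kinases. STS-2 and STS-1, from Ubash3a and Ubash3b, bind ubiquitin and Cbl and restrain the kinases. Both carry a phosphoglycerate mutase-like domain, which in STS-1 is an active tyrosine phosphatase, so Ubash3b is a phosphatase gene in that sense. The kinases DGKα and DGKζ turn diacylglycerol into phosphatidic acid and so end that branch.

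Population markers and 2 arrays come before the results, because several values rest on them. In 11 of the 13 arrays the summed linear intensity of 9 measured DP marker genes was 38780 to 43909 in DP arrays and 2344 to 3425 in V2 arrays. The sum was 2513 in the array labelled DP cKO replicate 5 and 43372 in that labelled V2 WT replicate 5 (immV2). For 8 measured γδ markers these arrays had 20346 and 2928, against 10750 to 19143 in the other V2 arrays and 2157 to 3080 in the other DP arrays. Both arrays keep their labels but are given apart, and the comparisons use the other 11 arrays (V2: 3 WT and 4 cKO; DP: 2 of each). The fit with all 13 as labelled is given beside the calls. Sox4 itself was 8.71, 8.64 and 9.68 in the kept V2 WT arrays. It was 8.07, 8.11 and 8.23 in 3 of the V2 cKO arrays, below every V2 WT array, and 9.60 in V2 cKO replicate 5 (V2imm). In DP, Sox4 was 9.37 and 8.55 in WT and 8.74 and 8.68 in the kept cKO arrays, which overlap. By limma Sox4 differed by -0.51 on the log2 scale in V2 (SE 0.38, adjusted p = 0.999) and by -0.25 in DP (SE 0.49, adjusted p = 1). Where its probe set lies relative to the deleted part is not known here, so it may check nothing. Because the labels leave unsaid whether replicates are separate animals, each p-value reflects the spread of these arrays alone, which may be technical, and their small number limits the precision. In bulk RNA, fewer cells of a type and less RNA per cell cannot be told apart.

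Promoter sequences were available from RefSeq (GRCm38.p6) for 8 of the 10 genes, at 13 annotated starts. The 250 bases before the start are shown for Cblb and Ubash3b, because these were the members with higher levels in V2 than in DP cells in both genotypes. All sequences run 5′ to 3′ on the gene's strand. Capitals mark matches, on either strand, to ACAAAG (the core that HMG box proteins such as Sox and TCF factors can bind), CAGCTG (an E box) or TGANTCA (an AP-1 site), which do not overlap here. The Cblb promoter lies at chr16:52031299-52031548 on the plus strand, and the upstream and downstream Ubash3b promoters lie at chr9:41158063-41158312 and chr9:41079507-41079756 on the minus strand. Annotated gene spans are 52031230 to 52208047 for Cblb and 41010760 to 41161692 for Ubash3b. These windows thus lie inside the genes, before starts other than the outermost, and sequence before the outermost starts is not shown.
Cblb: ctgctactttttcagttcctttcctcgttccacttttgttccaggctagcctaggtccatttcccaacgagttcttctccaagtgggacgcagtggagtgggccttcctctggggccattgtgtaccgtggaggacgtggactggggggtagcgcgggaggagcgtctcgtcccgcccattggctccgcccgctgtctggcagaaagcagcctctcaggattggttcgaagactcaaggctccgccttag
Ubash3b upstream start: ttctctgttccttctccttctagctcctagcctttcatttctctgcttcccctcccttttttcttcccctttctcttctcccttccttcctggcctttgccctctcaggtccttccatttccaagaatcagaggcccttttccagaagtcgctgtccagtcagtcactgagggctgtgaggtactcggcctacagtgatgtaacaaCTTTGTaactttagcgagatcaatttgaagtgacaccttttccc
Ubash3b downstream start: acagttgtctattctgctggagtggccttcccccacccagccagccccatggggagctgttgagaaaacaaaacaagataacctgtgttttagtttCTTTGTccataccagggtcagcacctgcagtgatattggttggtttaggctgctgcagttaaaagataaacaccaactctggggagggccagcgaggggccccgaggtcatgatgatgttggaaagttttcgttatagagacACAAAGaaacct
The Cblb window holds none of these letters. The upstream Ubash3b window has 1 match to ACAAAG and the downstream window has 2, while 16.5% of all 32807 promoter windows of this length have at least 1. Of the 13 member windows, 3 hold ACAAAG (both of Ubash3b and 1 of the 4 of Dgka), 1 holds CAGCTG (Sla2) and 0 hold TGANTCA, while 4267 windows of all held CAGCTG and 6.75% held TGANTCA. A match describes letters and not a bound site, and no binding was measured.

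**Figure D1:**
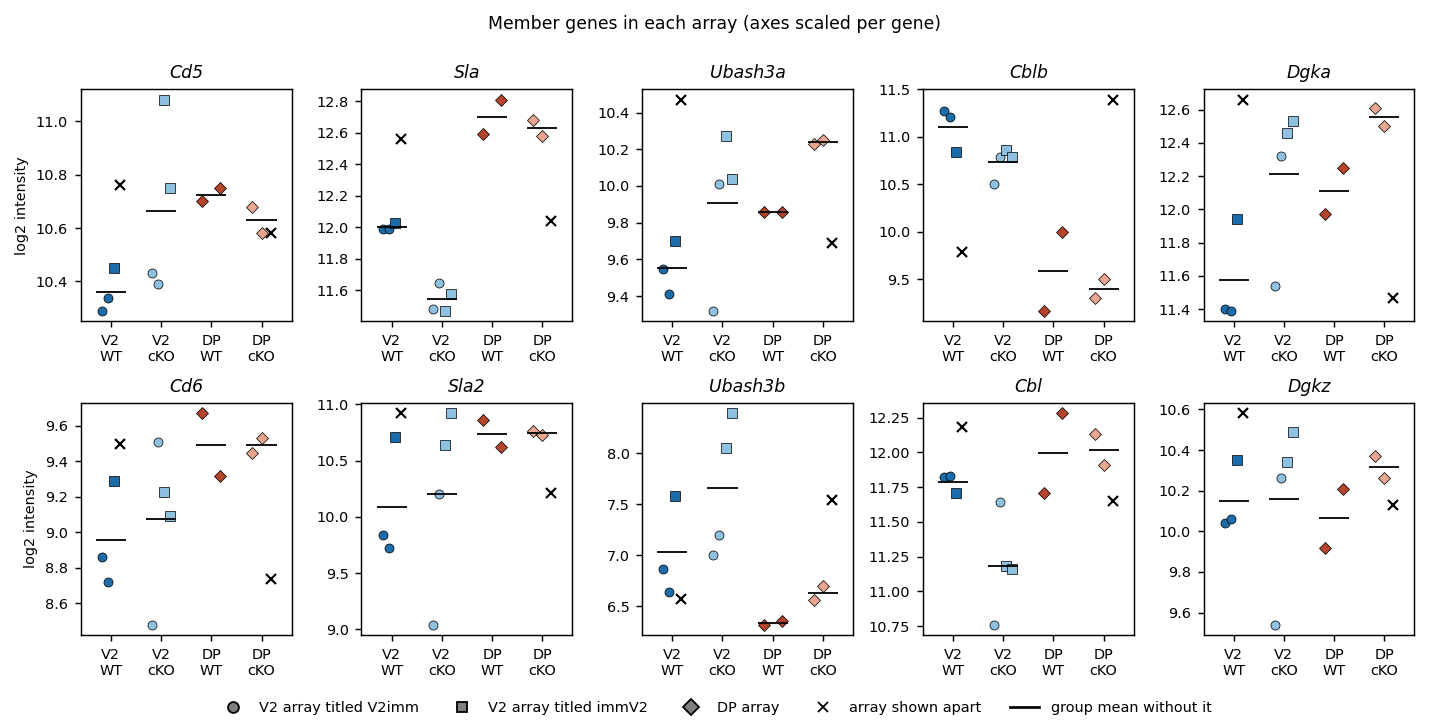
Log2 intensity (vertical axes, scaled per gene) of the 10 genes in each of the 13 arrays, by group; circles are V2imm arrays, squares immV2 arrays, diamonds DP arrays, crosses the 2 arrays shown apart, and lines the group means without those. Cblb sits between 10.50 and 11.27 in V2 and between 9.17 and 10 in DP, and its 2 crosses lie with the opposite population.

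Wild-type V2 and DP cells were compared to see which of these brakes differ between immature γδ thymocytes and αβ lineage thymocytes. The cKO arrays give the same comparison in other arrays, with the title term and the estimate of the spread in common. In both genotypes Cblb and Ubash3b were higher and Sla was lower in V2 than in DP cells, by limma with Benjamini-Hochberg adjustment over all genes. The other 7 members did not pass in either genotype. The 3 called members compare with 4.87% of all genes called in WT (3.2% higher, 1.67% lower) and 5.45% in cKO (3.5% higher, 1.94% lower). Calls higher in both genotypes were made for 2.25% of genes and calls lower in both for 1.13%. The median difference of the 10 members was -0.27 in WT and -0.34 in cKO, against -0.02 and -0.01 over all genes. The groups did not overlap for 7 of the 10 members in WT (27.2% of all genes) and for 4 of 10 in cKO (21.1%). With the 13 arrays as labelled, 0 members were called in either genotype, where limma called 0.0557% and 0.0354% of genes; at an unadjusted p under 0.05, the 11-array comparisons had 3 members in WT (14.0% of all genes) and 4 in cKO (14.3%).

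The ubiquitin ligase genes differed from each other in this comparison. Cblb, whose product sets the threshold for T cell activation, had log2 intensities of 11.27 and 11.21 in the V2imm WT arrays and 10.84 in the immV2 WT array, and of 9.17 and 10 in DP WT. V2 cKO arrays had 10.50 and 10.79 (V2imm) and 10.86 and 10.79 (immV2), and DP cKO arrays had 9.31 and 9.50. All 7 V2 arrays were above all 4 DP arrays. The V2 level was 2.86-fold the DP level in WT (log2 difference 1.51, SE 0.26, adjusted p = 0.00289) and 2.52-fold in cKO (1.33, SE 0.24, adjusted p = 0.00429). Only 1.56% and 1.88% of genes had a larger difference in either direction. Cblb was 11.39 in the array labelled DP cKO replicate 5 and 9.79 in that labelled V2 WT replicate 5 (immV2), and with the 13 arrays as labelled the differences were 1.19 (SE 0.52, adjusted p = 0.569) and 0.67 (SE 0.46, adjusted p = 0.764). Without DP cKO replicate 3 the cKO difference was 1.23 with adjusted p = 0.0872.

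Cbl, the paralog that is itself a brake on thymocyte receptor levels, had 11.82, 11.83 and 11.71 in V2 WT and 11.71 and 12.28 in DP WT, which overlap. In V2 cKO it had 10.76, 11.64, 11.18 and 11.16, all below the DP cKO values of 12.13 and 11.91. The V2 minus DP difference was -0.22 (SE 0.25, adjusted p = 0.876) in WT and -0.84 (SE 0.24, adjusted p = 0.0665) in cKO, neither passing. Without V2 cKO replicate 5 (V2imm), which had the highest Cbl of its group, the cKO difference was -1.01 with adjusted p = 0.00881, and without V2 cKO replicate 4 (V2imm) it was -0.65 with adjusted p = 0.041. It also passed with quantile normalisation (-0.82, adjusted p = 0.0299), with the filter on dim genes (-0.84, adjusted p = 0.0477) and without DP WT replicate 3 (-0.84, adjusted p = 0.0489), each of which gave 4 called members in cKO.

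Among the STS genes Ubash3b was the one called. Its level was 6.87 and 6.64 in the V2imm WT arrays, 7.58 in the immV2 WT array, and 6.32 and 6.36 in DP WT. In cKO arrays it was 6.996 and 7.20 (V2imm), 8.05 and 8.39 (immV2), and 6.56 and 6.70 in DP. Within each genotype every V2 array was above every DP array, although V2 WT replicate 5 (V2imm) was below DP cKO replicate 4. The V2 minus DP difference was 0.85 in WT (SE 0.16, adjusted p = 0.00643) and 1.03 in cKO (SE 0.15, adjusted p = 0.00103). The DP levels lay below the median log2 intensity of every array (6.93 to 7.10), where background weighs more, so the size of this difference is less certain than that of Cblb. The spread among V2 arrays followed their titles, and without the title covariate neither difference passed (0.69, adjusted p = 0.571 in WT and 1.03, adjusted p = 0.202 in cKO). Without DP WT replicate 3 the WT difference was 0.83 with adjusted p = 0.0811, and as labelled the differences were 0.57 (adjusted p = 0.681) and 0.72 (adjusted p = 0.512).

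Ubash3a, the lymphocyte-restricted STS gene, had 9.55, 9.41 and 9.70 in V2 WT and 9.86 in both DP WT arrays. V2 cKO arrays had 9.32, 10.01, 10.27 and 10.04 and DP cKO arrays 10.23 and 10.25. Its V2 minus DP difference was -0.24 (SE 0.22) in WT and -0.33 (SE 0.21) in cKO, and neither passed (adjusted p = 0.807 and 0.57).

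The adaptor gene Sla was lower in V2 than in DP. It had 11.99, 11.99 and 12.03 in V2 WT against 12.59 and 12.81 in DP WT, and 11.48, 11.65, 11.47 and 11.58 in V2 cKO against 12.68 and 12.58 in DP cKO. No V2 array reached a DP array. The V2 level fell by 0.70 on the log2 scale in WT (SE 0.17, adjusted p = 0.0309) and by 1.09 in cKO (SE 0.16, adjusted p = 9.9e-04), a 1.62-fold and a 2.12-fold lower level. The WT call did not hold without any 1 of 9 arrays, all but V2 cKO replicates 4 and 5 (V2imm); the differences then ran from -0.80 to -0.59 and the adjusted p from 0.0521 to 0.139. The cKO call held without each array in turn. As labelled the differences were -0.56 (adjusted p = 0.51) and -0.89 (adjusted p = 0.164).

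Sla2 had 9.84, 9.72 and 10.71 in V2 WT and 10.86 and 10.62 in DP WT. It had 9.04, 10.20, 10.64 and 10.92 in V2 cKO, and 10.76 and 10.73 in DP cKO. The groups overlapped in both genotypes, and the differences of -0.47 (SE 0.28) and -0.55 (SE 0.27) did not pass (adjusted p = 0.566 and 0.383).

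Of the surface receptors neither was called. Cd5 had 10.29, 10.34 and 10.45 in V2 WT, below the 10.70 and 10.75 of DP WT, with a difference of -0.30 (SE 0.19, adjusted p = 0.608). In cKO its V2 values of 10.43, 10.39, 11.08 and 10.75 spread to either side of the DP values of 10.68 and 10.58 (difference 0.03, SE 0.18, adjusted p = 0.977). Cd6 had 8.86, 8.72 and 9.29 in V2 WT against 9.67 and 9.32 in DP WT (difference -0.49, SE 0.27, adjusted p = 0.5). In cKO it had 8.48, 9.51, 9.23 and 9.09 in V2 against 9.45 and 9.53 in DP (-0.41, SE 0.25, adjusted p = 0.552). Without V2 cKO replicate 5 (V2imm) the Cd6 and Sla2 differences in cKO, -0.66 and -0.77, passed (adjusted p = 0.0366 and 0.0453).

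The diacylglycerol kinase genes also were not called. Dgka had 11.40, 11.39 and 11.94 in V2 WT, below the 11.97 and 12.25 of DP WT, and 11.54, 12.32, 12.46 and 12.53 in V2 cKO against 12.61 and 12.50 in DP cKO. Its differences were -0.44 (SE 0.22, adjusted p = 0.428) and -0.34 (SE 0.21, adjusted p = 0.549). Dgkz had 10.04, 10.06 and 10.35 in V2 WT, 9.92 and 10.21 in DP WT, 9.54, 10.26, 10.34 and 10.49 in V2 cKO, and 10.37 and 10.26 in DP cKO. Its differences were 0.16 (SE 0.23, adjusted p = 0.917) and -0.16 (SE 0.21, adjusted p = 0.875). Dgkz was the only member with 2 probe sets; the dimmer one, at 6.99 to 7.57 over the 13 arrays, had V2 minus DP mean differences of -0.10 and -0.29, against 0.09 and -0.16 for the one used. The probe sets thus differed in sign in WT, at sizes below the errors.

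**Figure D2:**
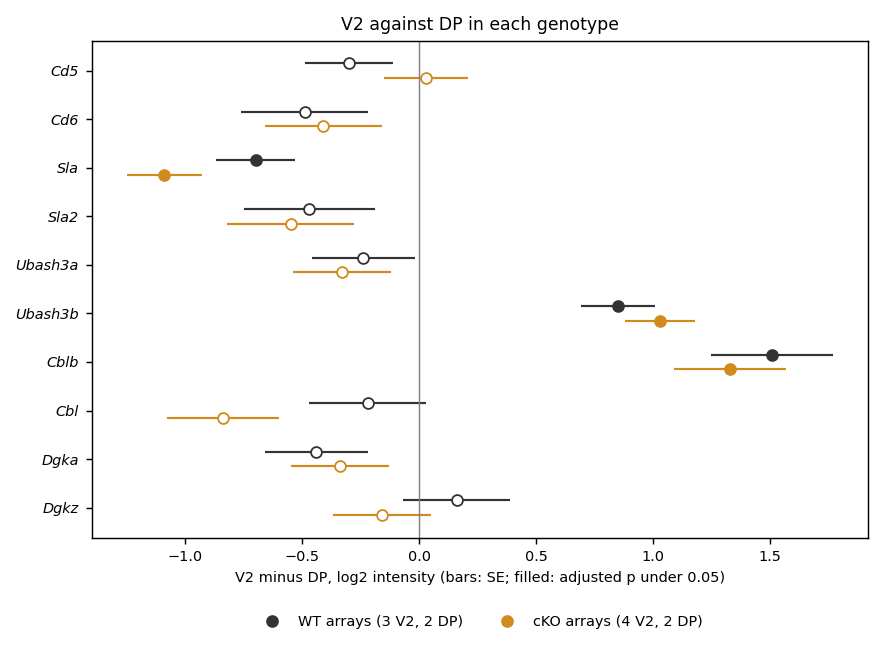
V2 minus DP difference in log2 intensity (horizontal axis) for each gene, in WT arrays (3 V2, 2 DP) and cKO arrays (4 V2, 2 DP); bars are standard errors of the fit and filled points have an adjusted p under 0.05. Cblb (1.51 and 1.33) and Ubash3b (0.85 and 1.03) lie to the right of 0 in both genotypes and Sla (-0.70 and -1.09) to the left.

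The 10 genes form 5 pairs of related proteins, and the ratio of the paired genes within an array shows whether one changed more than the other between populations. The level of one probe set was not compared with that of another. The ratio was tested by an exact two-sided permutation test of V2 against DP labels within genotype, with 150 splits and a smallest possible p of 0.00667. The Cblb/Cbl log2 ratio was -0.87 to -0.26 in the 7 V2 arrays and -2.82 to -2.28 in the 4 DP arrays, a mean shift of 1.95 over the genotypes (permutation p = 0.00667, 0.0111 adjusted over the 5 pairs). The shift was 1.73 in WT and 2.17 in cKO. With the 13 arrays as labelled the shift was 1.34 (permutation p = 0.0267), which did not pass when adjusted over the 5 pairs (0.134). The Ubash3a/Ubash3b ratio was 1.65 to 2.80 in V2 and 3.50 to 3.67 in DP, a shift of -1.18 (permutation p = 0.00667, 0.0111 adjusted), which did not pass as labelled (-0.76, permutation p = 0.059, 0.147 adjusted).

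The Dgka/Dgkz ratio shifted by -0.40 (permutation p = 0.00667, 0.0111 adjusted), with -0.62 in WT and -0.19 in cKO. Over both genotypes V2 (up to 2.13) and DP (from 2.04) overlapped, though not within either genotype. The brighter Dgkz probe set was used, and a ratio with the dimmer probe set was not tested. The tested ratio was 1.36, 1.33 and 1.59 in V2 WT against 2.05 and 2.04 in DP WT, and 2.01, 2.07, 2.13 and 2.03 in V2 cKO against 2.24 in both DP cKO arrays. As labelled the shift was -0.17 (permutation p = 0.352, 0.373 adjusted). The Cd5/Cd6 ratio shifted by 0.31 (permutation p = 0.187) and the Sla/Sla2 ratio by -0.29 (permutation p = 0.467), neither passing, and V2 and DP arrays overlapped in both.

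**Figure D3:**
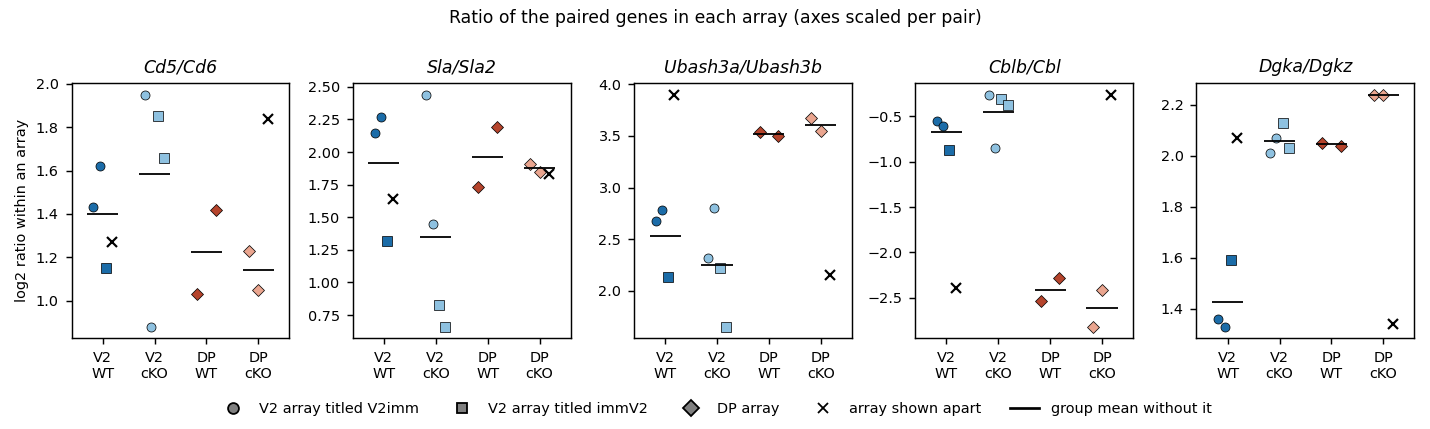
Log2 ratio of the paired genes within each of the 13 arrays (vertical axes, scaled per pair), by group; symbols as in the plot of single genes, with crosses for the 2 arrays shown apart and lines for group means without them. Cblb/Cbl and Ubash3a/Ubash3b separate all kept V2 from all kept DP arrays. Dgka/Dgkz separates them within each genotype but not across the genotypes.

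Much of the spread among V2 arrays went with the form of the title. The immV2 arrays (n = 3) did not overlap the V2imm arrays (n = 4) in 4 of the 10 members, against 14.9% of all genes. Ubash3b was 6.64 to 7.20 in V2imm and 7.58 to 8.39 in immV2, Sla2 was 9.04 to 10.20 and 10.64 to 10.92, Cd5 was 10.29 to 10.43 and 10.45 to 11.08, and Dgkz was 9.54 to 10.26 and 10.34 to 10.49. The differences of means were 1.08, 1.05, 0.39 and 0.42. Dgka (0.65), Ubash3a (0.43) and Cd6 (0.31) also had higher means in immV2, with overlap. Sla (-0.08), Cblb (-0.11) and Cbl (-0.16) differed little in mean between the forms. These means do not hold WT and cKO arrays in equal shares. Cblb was lower in immV2 WT (10.84) than in V2imm WT (11.27 and 11.21), but not lower in immV2 cKO than in V2imm cKO. The sources used here do not say what the title forms stand for. Over 12 macrophage and dendritic cell markers the summed linear intensity was 1889 to 6395 in V2imm and 960 to 1377 in immV2, against 999 to 1138 in the 4 DP arrays; its part in these values was not tested. V2 cKO replicate 4 (V2imm) had the lowest V2 value of Cd6, Sla2, Ubash3a, Cblb, Cbl and Dgkz among the kept V2 arrays. Its upper-quartile intensity, 332.7, was also below that of any other array, and the part of this in those values was not tested.

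The Sox4 cKO arrays were then compared with WT within each population, which addresses whether loss of Sox4 goes with a change in these brakes. No member passed in V2 or DP by limma, and none did under any alternative run. In V2 limma called 0 genes in all (0.0%), with 3.83% of genes and 4 of the 10 members at an unadjusted p under 0.05. These were Ubash3b (log2 difference 0.47, SE 0.14, unadjusted p = 0.00463, adjusted p = 0.672), Sla (-0.46, SE 0.14, unadjusted p = 0.00682, adjusted p = 0.802), Dgka (0.54, SE 0.19, unadjusted p = 0.0119, adjusted p = 0.985) and Cbl (-0.59, SE 0.21, unadjusted p = 0.0164, adjusted p = 0.999).

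Over the 8 measured γδ markers the summed linear intensity was 18868 to 19143 in V2 WT and 10750 to 16675 in V2 cKO, which do not overlap. Sox13, Etv5 and Maf were lower in every V2 cKO array than in any kept V2 WT array, and the Blk groups met at 10.94. Il17rb went the other way (9.46 to 9.93 in WT, 10.04 to 11.51 in cKO), and Cd44, Il2rb and Gata3 overlapped. The part of these markers in the member values was not tested. The groups did not overlap in V2 for Sla and Cbl, 2 of 10 members against 3.45% of all genes. All 4 cKO arrays had Sla at 11.47 to 11.65, below the 11.99 to 12.03 of the 3 WT arrays, and Cbl at 10.76 to 11.64, below 11.71 to 11.83. Over the alternatives the Sla difference ran from -0.60 to -0.43 and the Cbl difference from -0.80 to -0.36. Sla was 12.56 and Cbl 12.18 in the array labelled V2 WT replicate 5 (immV2), both above every other V2 array. For the remaining members the V2 differences were 0.24 (SE 0.16) for Cd5, 0.07 (SE 0.22) for Cd6, -0.07 (SE 0.24) for Sla2, 0.29 (SE 0.18) for Ubash3a, -0.36 (SE 0.21) for Cblb and -0.07 (SE 0.19) for Dgkz. The median size of the 10 differences was 0.33, against 0.10 over all genes. All members but Ubash3b were among the brighter genes (percentile 84.3 or above), and the lists of related genes given below had median sizes of 0.09 to 0.23. The part of intensity in this contrast was not tested.

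In DP, with 2 arrays in each genotype, limma called 0.0253% of genes and 0 members, with 0 members and 2.71% of genes at an unadjusted p under 0.05. The differences with the smallest p were Dgka (0.45, SE 0.24, adjusted p = 1), Ubash3b (0.29, SE 0.18, adjusted p = 1) and Ubash3a (0.38, SE 0.24, adjusted p = 1). The other 7 ran from -0.18 (Cblb) to 0.25 (Dgkz), each at most about its standard error. The groups did not overlap for 5 of 10 members (Cd5, Ubash3a, Ubash3b, Dgka and Dgkz) against 29.8% of all genes. Skeletal muscle markers had a summed linear intensity of 1015 to 1569 in DP WT and 1862 to 3048 in DP cKO over 7 genes. The summed B cell markers were 1039 to 1043 in DP WT and 1443 to 1543 in DP cKO. Most of the sum came from Cd79b, at 9.61 and 9.63 against 10.21 and 10.36, and 4 of the 6 measured genes lay below the lower quartile of the arrays. Ms4a1 (4.86 and 5.05 against 4.79 and 4.34) and Pax5 (6.42 and 6.45 against 6.38 and 6.26) were lower in DP cKO. The Cd79a groups met at 5.48, and Blnk and Ebf1 overlapped. The part of either list in these values was not tested.

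Whether the cKO effect differs between populations was tested as an interaction, and 0 members and 0.0% of genes passed by limma. The largest member terms were -0.62 for Cbl (SE 0.35, unadjusted p = 0.101, adjusted p = 1) and -0.39 for Sla (SE 0.23, unadjusted p = 0.12, adjusted p = 1).

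**Figure D4:**
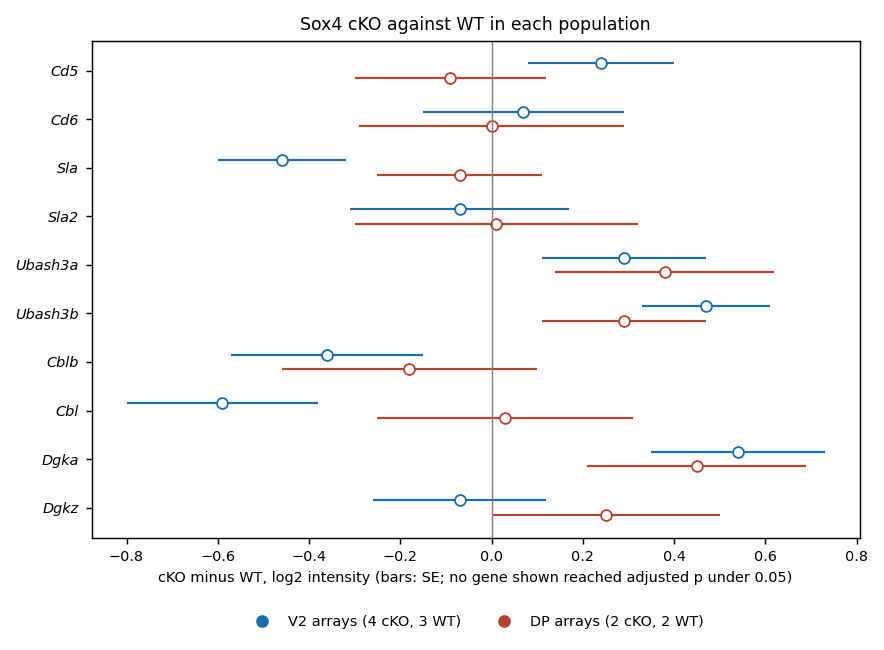
cKO minus WT difference in log2 intensity (horizontal axis) for each gene, in V2 arrays (4 cKO, 3 WT) and DP arrays (2 cKO, 2 WT); bars are standard errors of the fit, and no gene shown had an adjusted p under 0.05. In V2, Cbl (-0.59) and Sla (-0.46) lie farthest to the left and Dgka (0.54) farthest to the right.

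Patterns across the 11 arrays are given as descriptions, since the arrays share groups and titles. Ubash3a and Dgka had a Pearson r of 0.94, and each was among the 3 genes of the whole array with the most similar pattern to the other. Sla and Cbl had an r of 0.85, and Cd6 and Sla2 of 0.83. Sla had an r of -0.75 with Cblb and -0.76 with Ubash3b. The genes most like Cblb were Etv6 (0.984), Prxl2a (0.982) and Aak1 (0.982), those of Ubash3a included the B cell gene Cd79b (0.932), those most like Ubash3b were Gpr146 (0.992), Pde3b (0.983) and Plekha1 (0.975), and those most like Sla were Tnfaip3 (0.981), Mef2a (0.972) and Plxnd1 (0.968).

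The rest of the pathway gives the setting of the V2 against DP difference in WT, from lists chosen with earlier results of these data known. Of 21 measured receptor chains and activating proximal components, 2 were higher and 2 lower in V2, where 3.2% of all genes were higher and 1.67% lower. Prkcq, which encodes protein kinase Cθ, a diacylglycerol effector (log2 difference 1.11, SE 0.18, adjusted p = 0.00246), and the kinase gene Fyn (0.99, SE 0.25, adjusted p = 0.0426) were higher. Themis, a signalling gene of DP selection (-1.31, SE 0.21, adjusted p = 0.00182), and the receptor chain gene Cd3g (-0.87, SE 0.19, adjusted p = 0.0194) were lower. These 4 were called in the same direction in cKO, with differences of 1.01, 1.10, -1.13 and -0.76. The WT call of Fyn did not hold without any 1 of 9 arrays (all but V2 cKO replicates 4 and 5, V2imm; adjusted p 0.0645 to 0.285), nor without the title covariate (0.91, adjusted p = 0.167) or with median centring (0.98, adjusted p = 0.0829). That of Cd3g did not hold without V2 WT replicate 5 (V2imm), V2 WT replicate 3 (immV2) or either DP WT array (adjusted p 0.0569 to 0.155), nor without the title covariate (-1.08, adjusted p = 0.403).

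Of 21 direct partners and substrates of the brakes, 3 were higher and 0 lower, against 3.2% and 1.67% of all genes: Prkcq, the phosphoinositide kinase gene Pik3cd (1.67, SE 0.36, adjusted p = 0.0146) and Cd72, a proposed CD5 ligand better known from B cells (1.03, SE 0.16, adjusted p = 0.00161). The WT call of Pik3cd did not hold without any 1 of the 5 WT arrays (adjusted p 0.0581 to 0.139) or without the title covariate (1.44, adjusted p = 0.339), and its V2 and DP groups overlapped in cKO. Rasgrp1, the diacylglycerol-activated exchange factor, did not pass (0.59, SE 0.18, adjusted p = 0.0946). Cd72 was 6.38 to 6.89 in V2 WT and 5.44 to 5.79 in DP WT, below the median log2 intensity of every array (6.93 to 7.10). The summed B cell markers were 708 to 830 in V2 WT and 1039 to 1043 in DP WT. Cd79b, which makes up most of the sum, was lower in V2 WT (8.67 to 9.24 and 9.61 to 9.63), and Blnk went the other way (5.94 to 6.54 and 5.78 to 5.85). Cd79a, Ms4a1, Pax5 and Ebf1 overlapped. The part of these markers in the Cd72 value was not tested. Of 12 measured other diacylglycerol kinases, Cbl family and lipid phosphate genes, 0 were higher (3.2% of all genes) and 1 was lower (1.67%), Dgke, another diacylglycerol kinase (-2.23, SE 0.26, adjusted p = 1.6e-04; -2.63, SE 0.25, adjusted p = 2.1e-05 in cKO).

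Of 27 genes listed as other brakes that are not phosphatases, 3 were higher and 2 lower in V2 WT, against 3.2% and 1.67% of all genes. The 4 with the smallest p were Cd160, an inhibitory receptor gene (1.57, SE 0.22, adjusted p = 7.0e-04), Rasa3, which encodes a GTPase-activating protein (1.64, SE 0.26, adjusted p = 0.00158), the adaptor gene Lax1 (1.35, SE 0.22, adjusted p = 0.00227) and Gch1, the first enzyme of tetrahydrobiopterin synthesis (-0.80, SE 0.16, adjusted p = 0.00979). In cKO the first 3 were called in the same direction (1.63, 1.57 and 0.96) and Gch1 was not (-0.06, adjusted p = 0.951). Gch1 was in this list, although its product is a synthesis enzyme and not an established brake on the receptor. The other lower gene was Tnfaip3, at -0.77 in WT (SE 0.19, adjusted p = 0.032) and -1.10 in cKO (SE 0.18, adjusted p = 0.00183). As labelled the WT difference of Tnfaip3 was -0.61 (adjusted p = 0.518). Cd160 in DP WT (5.62 to 6.18) and Gch1 in V2 WT (5.67 to 6.47) lay below the median log2 intensity of every array (6.93 to 7.10). The sizes of their WT differences are thus less certain. In WT the calls of Rasa3 (1.43, adjusted p = 0.199), Lax1 (1.24, adjusted p = 0.0598) and Gch1 (-0.87, adjusted p = 0.0541) did not hold without the title covariate, that of Lax1 also not without DP WT replicate 3 (1.09, adjusted p = 0.0503) and that of Gch1 not without DP WT replicate 5 (-0.70, adjusted p = 0.108). Of 20 genes induced early by receptor signals, 3 were higher and 1 lower, against the same 3.2% and 1.67%: Myc (1.49, SE 0.20, adjusted p = 5.2e-04), Nr4a3 (1.10, SE 0.17, adjusted p = 0.0018) and Nr4a2 (0.94, SE 0.19, adjusted p = 0.00838) against Nfkbia, which encodes the NF-κB inhibitor IκBα (-1.59, SE 0.23, adjusted p = 0.00102). The WT call of Nr4a2 did not hold without DP WT replicate 3 (0.76, adjusted p = 0.15) or V2 WT replicate 3 (immV2) (0.86, adjusted p = 0.0819). Nr4a3 in DP WT, at 6.10 to 6.55, also lay below every array median. As labelled, Myc was the only one of the genes named in the lists that passed (1.43, adjusted p = 0.0326). In the comparisons of cKO with WT, 0 genes of any of the 5 lists passed in V2 or in DP. The smallest p in the lists were those of Cd72 in V2 (0.57, SE 0.14, adjusted p = 0.312) and Myc in DP (0.91, SE 0.22, adjusted p = 0.515).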

How the data were processed

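Thymocyte RNA was measured on 13 Affymetrix arrays, 1 per sample. The deposited values are intensities of probe sets, which the authors summarised, per the submitters' processing notes, with RMA in Affymetrix Power Tools; versions and genome build are not given in the sources used. Values ran from 6.16 to 23800 with array medians of 122.2 to 137.2, so they were taken as linear. RMA subtracts background, which leaves the size of differences at low levels uncertain. Among 24922 probe sets, the platform annotation gave 1 symbol to 21425, several to 1399 and none to 2098, and the brightest per symbol left 19752 genes.

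Log2 values were fitted with limma 3.58.1 in R 4.3.3 (lmFit, eBayes with an intensity trend), with 4 group means and the V2 title form as covariate, over 11 arrays. P-values were two-sided and adjusted by the Benjamini-Hochberg method over all genes, with a threshold of 0.05. Ratios of paired genes were tested with exact permutations. Alternatives covered the arrays used, covariate, variance trend, normalisation, an offset of 32, a filter on dim genes, probe sets, replicate blocks and left-out arrays. The procedure was also tested on simulated data. Members, lists and the arrays given apart were chosen with earlier results of these data known. Other genes were named by the smallest p in each list (up to 4 in V2 WT against DP WT) or by likeness (3 per member, of which some are given). Plots used matplotlib 3.10.9 (Python 3.11.15).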

Additional observations from a re-analysis of the deposited data

Results flagged for a closer look

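Sla had a log2 intensity of 12.56 in the array labelled V2 WT replicate 5 (immV2), far above the 11.99 to 12.03 of the other 3 V2 WT arrays, and its gap was 0.924 of the group's range against a critical value of 0.829. This is 1 of the 2 arrays given apart, and its markers are those of DP cells. Of 20 groups of values examined in this way 1 stood out, and chance gives about 5%.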

How the results depend on the processing

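With the 13 arrays as labelled, 0 members were called in V2 against DP in either genotype, and of all genes 11 (WT) and 7 (cKO) were; the Cblb/Cbl shift was 1.34, the Ubash3a/Ubash3b shift -0.76 and the Dgka/Dgkz shift -0.17. Left-out arrays gave 1 to 3 members in WT and 2 to 6 in cKO, and 477 to 1575 and 480 to 1632 genes. Of these, WT had 477 genes and 1 member without DP WT replicate 3, 606 without V2 WT replicate 4 (V2imm), 639 without V2 WT replicate 3 (immV2), 1575 without V2 cKO replicate 4 (V2imm) and 1478 without replicate 5 of that set. The cKO comparison had 480 without DP cKO replicate 3, 544 without DP cKO replicate 4 and 1632 without V2 cKO replicate 4 (V2imm). Without the title covariate 594 and 637 genes were called, against 962 and 1076.

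For cKO against WT in V2, the number called of all genes was 13 with quantile normalisation, 9 with the dim filter, 6 with V2imm arrays alone, 34 with the fixed replicate block and 0 to 44 with left-out arrays (44 without V2 cKO replicate 5, V2imm), against 0. In DP, called genes were 0 as labelled and in DP arrays alone, 3 without the title covariate, 9 with quantile normalisation, 8 with the dim filter, 8 with the fixed replicate block and 0 to 14 with left-out arrays, against 5. Interaction calls were 4 with the fixed block and 0 to 4 with left-out arrays, against 0. No member was called in any of these. Replicate numbers were not taken as pairs, since the labels do not say that they are. Deviations of same-numbered arrays correlated at -0.50 to 0.18. The fit makes V2 deviations sum to 0 within each genotype and title form, which by itself lowers these correlations. They therefore cannot decide whether the numbers mark pairs. The random block called the same number of members as the fit without it.

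Among the members only differences that were not called changed sign. As labelled these were Dgka in V2 cKO against DP cKO (0.02), Cd6 in V2 cKO against WT (-0.02), and Sla2 (-0.17), Cblb (0.48) and Cbl (-0.10) in DP cKO against WT. With quantile normalisation Cd5 in V2 cKO against DP cKO was -0.00, and with median centring Sla2 in DP was -0.01. With immV2 alone, Cd6 (-0.13), Sla2 (0.07) and Dgkz (0.06) turned in V2, and without the title covariate Sla2 (0.11) and Dgkz (0.01). In DP the fixed replicate block turned Sla (0.08), Sla2 (-0.10) and Cblb (0.14), and the random block Cd6 (0.01) and Cbl (-0.01). With left-out arrays the ranges that crossed 0 were -0.51 to 0.07 for Cbl in WT V2 against DP; -0.07 to 0.08 for Cd5 and -0.29 to 0.01 for Dgkz in cKO V2 against DP; -0.22 to 0.29 (Cd6), -0.34 to 0.24 (Sla2) and -0.22 to 0.14 (Dgkz) in V2; and -0.18 to 0.17 (Cd6), -0.18 to 0.03 (Sla), -0.11 to 0.13 (Sla2), -0.60 to 0.23 (Cblb) and -0.26 to 0.31 (Cbl) in DP. The cause was not tested.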

Other observations

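The Dgka/Dgkz log2 ratio also differed between the genotypes within V2 without overlap, a comparison chosen after its values were seen. It was 1.33 to 1.59 in the 3 V2 WT arrays and 2.01 to 2.13 in the 4 V2 cKO arrays, a difference of 0.63 (exact two-sided permutation test, p = 0.0286, the smallest that 35 splits allow), which did not pass when adjusted over the 5 pairs (0.143). Of the 5 pairs, the other 4 had permutation p from 0.314 to 0.571. Left-out arrays gave differences from 0.58 to 0.71, in designs too small to reach the threshold. As labelled the difference was 0.47 (permutation p = 0.114). In DP the ratio was 2.05 and 2.04 in WT and 2.24 in both cKO arrays. It was 2.07 in the array labelled V2 WT replicate 5 (immV2) and 1.34 in that labelled DP cKO replicate 5.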
